A study of Mus musculus with 8 samples.

Results

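The proteasome genes described here are the subunits of the proteasome, its activators, its inhibitor and the chaperones that assemble it. Members were all protein-coding genes of the GENCODE M21 annotation whose symbol is Psma, Psmb, Psmc, Psmd, Psme, Psmf or Psmg followed by a number, without Psmb8 and Psmb9. The deposited count table held 46 such genes among 50143, and 45 of them had enough reads to be tested. The missing one was Psmb11, the catalytic subunit of the thymus proteasome, with 1 read in 1 of 8 tumours.

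The 8 tumours grew from Py230 cells, a single mouse breast adenocarcinoma line, placed in mammary gland 4 of female C57BL/6 mice. Every host had been ovariectomized when 6 weeks old. Hosts of the 4 tumours labelled Obese ate a diet with 60% of calories from fat (5.1 kcal/g), and hosts of the 4 tumours labelled Lean ate a regular diet with 10% (3.6 kcal/g). Diets began 2 weeks after surgery and had run for 6 weeks when the cells were injected, by which time high-fat hosts had become 35% heavier on average, and tumours were collected at day 56. The comparison asks how the RNA of tumour tissue differed between the 2 kinds of host. Because all hosts lacked ovaries and all tumours came from 1 line, nothing here speaks for intact hosts or other lines. The labels do not say whether each tumour came from a mouse of its own, and the p-values measure only the spread between these 8 tumours.

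The proteasome is the barrel-shaped protease that breaks down proteins tagged with ubiquitin. Its 20S core is a stack of alpha rings and beta rings, with the cutting sites of Psmb5, Psmb6 and Psmb7 inside. The 19S cap, made of a base with a ring of ATPases and a lid, binds the ubiquitin chain, removes it and threads the protein into the core. Other activators (Psme1 with Psme2, Psme3, Psme4) can open the core in place of the 19S cap. Interferon induces the immunosubunits Psmb8, Psmb9 and Psmb10, which replace the standard cutting subunits and help make peptides for MHC class I, and it induces Psme1 and Psme2. When proteasomes are impaired, the transcription factor NRF1 (Nfe2l1) raises many subunit genes together through antioxidant response elements in their promoters.

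Promoters were examined for those regulatory elements, as a description of sequence. RefSeq gave windows of 300 bases (250 before to 50 after a start site, build GRCm38.p6) for 38 members, 41 windows in all. Psma8, Psmb1, Psmb2, Psmb7, Psmc3, Psmd3, Psmd7 and Psmg2 were not matched. The antioxidant response element was searched as TGACNNNGC or TGAGNNNGC and the interferon response element as GAAANNGAAA, each on both strands. The 4 windows shown are a 19S lid gene that was higher in obese tumours and holds the first element in 2 places (Psmd12), a cutting subunit that was lower and holds it (Psmb6), and the lower genes with the second element (Psme1, Psmg4). Psmg4 also holds the first element, which is not marked. Capitals mark the matches, and each sequence runs 5′ to 3′ on the plus strand, the coding strand of all 4 genes.
Psmd12: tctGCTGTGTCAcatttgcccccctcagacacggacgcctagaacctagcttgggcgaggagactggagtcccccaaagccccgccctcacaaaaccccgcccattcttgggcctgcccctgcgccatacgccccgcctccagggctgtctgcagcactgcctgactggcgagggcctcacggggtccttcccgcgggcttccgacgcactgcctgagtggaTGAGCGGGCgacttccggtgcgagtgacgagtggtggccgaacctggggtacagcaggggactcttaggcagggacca
Psmb6: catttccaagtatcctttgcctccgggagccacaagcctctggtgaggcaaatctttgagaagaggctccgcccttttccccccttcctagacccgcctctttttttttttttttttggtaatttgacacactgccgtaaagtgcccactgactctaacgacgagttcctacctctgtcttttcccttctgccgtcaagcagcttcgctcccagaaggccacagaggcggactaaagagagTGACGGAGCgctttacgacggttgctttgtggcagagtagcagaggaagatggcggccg
Psme1: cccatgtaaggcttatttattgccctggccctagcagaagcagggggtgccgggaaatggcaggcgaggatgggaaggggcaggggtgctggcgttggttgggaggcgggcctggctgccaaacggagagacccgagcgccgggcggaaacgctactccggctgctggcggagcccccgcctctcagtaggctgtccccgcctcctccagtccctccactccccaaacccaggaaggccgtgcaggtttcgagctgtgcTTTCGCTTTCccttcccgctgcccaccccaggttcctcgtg
Psmg4: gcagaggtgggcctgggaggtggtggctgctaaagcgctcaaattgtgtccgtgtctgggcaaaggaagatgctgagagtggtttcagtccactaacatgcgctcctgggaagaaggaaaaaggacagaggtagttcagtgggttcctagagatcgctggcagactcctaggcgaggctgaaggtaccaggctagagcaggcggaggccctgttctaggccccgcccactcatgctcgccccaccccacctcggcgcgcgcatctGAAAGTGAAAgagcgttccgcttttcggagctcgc
These windows lie at chr11:107479278-107479577 (Psmd12), chr11:70525107-70525406 (Psmb6), chr14:55578244-55578543 (Psme1) and chr13:34162714-34163013 (Psmg4). In Psmd12 the matches are bases 4 to 12 and 223 to 231 of the window, in Psmb6 bases 242 to 250, in Psme1 bases 260 to 269 and in Psmg4 bases 266 to 275. The antioxidant response element was found in 17 of 41 member windows (41.5%), against 27.8% of 32851 windows of all genes. By outcome, it lay in 6 of 18 members that were higher in obese tumours, 2 of 5 that were lower and 8 of 14 that did not pass the test, differences that were not tested. The interferon response element was found in 5 of 41 member windows (12.2%), those of Psmb3, Psmd4, Psmd9, Psme1 and Psmg4, against 3.44% of all windows. Among these 5 genes, Psmd4 was higher, Psme1 and Psmg4 were lower, and Psmb3 and Psmd9 did not pass the test. Psmb3, Psmd9 and Psmg4 held both elements. A match to these letters is not evidence of binding, and other spellings of either element were not searched.

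More proteasome genes were higher than lower in tumours of obese mice, and most of those calls were subunits of the 19S cap. Levels are counts divided by the library total in M counts (CPM), with the total scaled by edgeR's TMM method, and log2 changes are obese minus lean ± standard error (SE), with adjusted p from edgeR's quasi-likelihood test over all 14887 tested genes. At an adjusted p under 0.05, 21 of 45 tested members (46.7%) were higher and 5 (11.1%) were lower. Among all tested genes, 30.9% were higher and 28.4% lower, 59.2% in all, so calls are common in this comparison. The median log2 change of the members was 0.24, against −0.04 for all tested genes. In 18 members every obese tumour lay above every lean tumour, and in 3 every obese tumour lay below. This is 46.7% of members without overlap between the groups, against 57% of all tested genes (28.9% with obese higher, 28.1% with obese lower).

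The scaling of the libraries set how many members passed in each direction. With upper quartile factors 9 members (20%) were higher and 10 (22.2%) lower, against 24.3% and 34.6% of all tested genes, 58.8% in all, and the median log2 change was 0.03. The median of all tested genes moved with it, to −0.25, so the members stood 0.28 above it under that scaling and under TMM. Calls over all genes were higher in 52.1% of cases with TMM and in 41.2% with upper quartile factors. Of the 26 members called with TMM factors, 10 were called under each of the 18 alternatives run. These were Psma3, Psmc4, Psmd1, Psmd2, Psmd4, Psmd8, Psme3 and Psme4, all higher in obese tumours, and Psmd10 and Psmg4, both lower. The same count over all genes is not given here, so whether holding in every setting is unusual cannot be said. The 12 calls lost with upper quartile factors, all rises, were Psma1, Psma5, Psma6, Psmb1, Psmb7, Psmc1, Psmc5, Psmc6, Psmd7, Psmd12, Psmd14 and Psmf1. Changes described as rises or falls in the text refer to TMM scaling unless another is named.

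**Figure D1:**
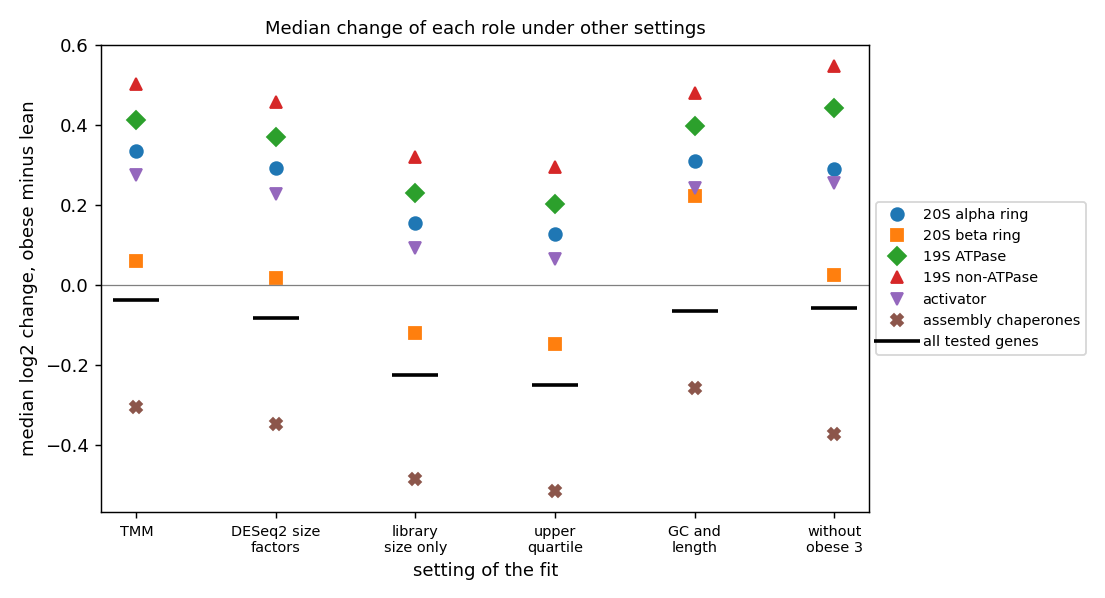
Median log2 change (vertical axis) of each role of proteasome genes under 6 settings, with the median of all tested genes as a black bar. The role medians and that of all genes move down together with library size only or upper quartile factors, and the order of 19S non-ATPase subunits at the top and assembly chaperones at the bottom is the same in all 6.

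**Figure D2:**
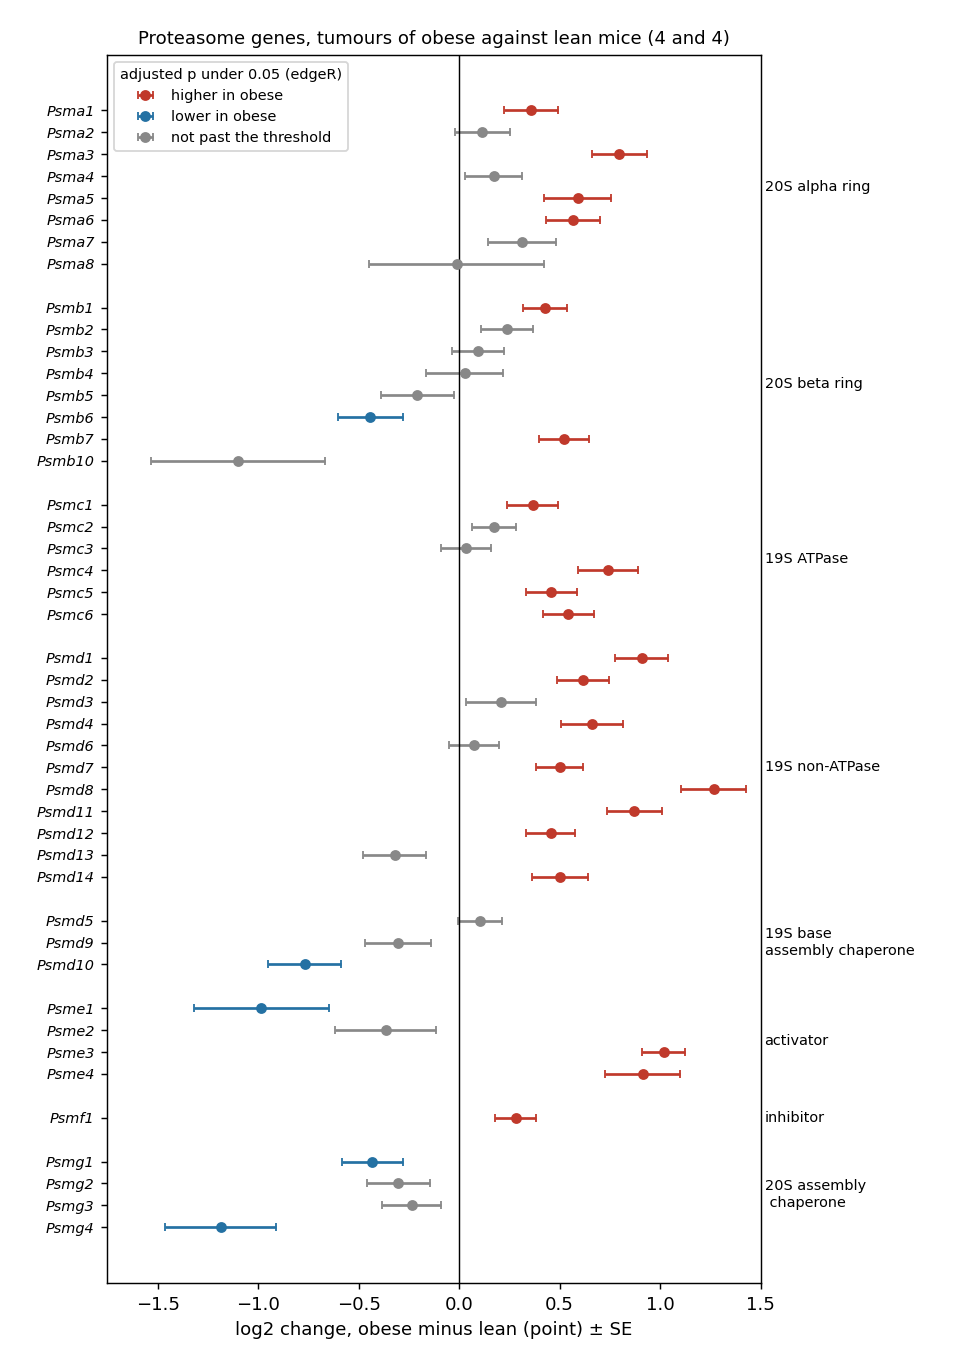
Log2 change of each tested proteasome gene (obese minus lean, point) with its SE (bar), grouped by role, 4 tumours per group. Red points passed the test as higher, blue points as lower and grey points did not pass. The 19S rows lie mostly right of 0 and 6 of 7 assembly chaperones lie left of it.

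Summed over all members, proteasome RNA was 10609, 8255, 10125 and 9799 CPM in obese replicates 1 to 4. It was 8720, 7343, 7923 and 7914 CPM in lean replicates 1 to 4. The groups overlapped, since obese replicate 2 lay below lean replicate 1. By role, the 11 non-ATPase subunits of the 19S cap summed to 3097 ± 319 CPM in obese and 2073 ± 126 CPM in lean tumours (mean ± SD, n = 4 each). The beta ring summed to 1845 ± 288 CPM in obese and 1846 ± 250.2 CPM in lean tumours, means that differed by far less than the SD. That sum includes the immunosubunit Psmb10, at 118 ± 46.8 CPM in obese and 253 ± 106 CPM in lean tumours. Equal sums therefore do not mean that the standard beta subunits were unchanged. Obese replicate 2, the deepest library, was the lowest of its group in 32 of 45 tested members. Lean replicate 2 was the lowest of its group in 21.

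Library depth ran from 25.7 to 66.7 M counts. A gene with no counts could still have had up to 3 in expectation, which is 0.0450 to 0.117 CPM depending on the library, for counting error only. Tested members other than Psma8 had at least 371 counts in each library. Markers of epithelial cells, the labelled origin of the line, summed to 66.3 to 827 CPM in obese tumours (highest in replicate 3). In lean tumours they summed to 1342 to 2617 CPM. All 8 lay lower in every obese tumour than in any lean one, against 28.1% of all tested genes, and 4 of 8 passed as lower. Epcam, Krt18, Cdh1 and Esrp1 did not pass (−2.84 to −3.53), but did without obese replicate 3 (−6.48 to −8.21, edgeR adjusted p at most 0.00168). Mesenchymal and fibroblast markers summed to 4572 to 11534 CPM in obese and 1148 to 1680 CPM in lean tumours. Vim made up most of the obese sum, at 3988 to 9733 CPM in obese and 369 to 728 CPM in lean tumours. Of these 8 markers, 4 were higher and 2, Dcn (−1.72) and Thy1 (−1.40), were lower, while Col1a1 and Col1a2 did not pass. Markers of dividing cells summed to 1174 to 1755 against 359 to 867 CPM, with 3 of 4 higher. The fourth, Mki67, had a negative change and did not pass (−0.56, edgeR adjusted p = 0.192). Top2a alone stood at 554 to 886 CPM in obese and 102 to 275 CPM in lean tumours. No marker was at 0 in every library. In bulk tissue, fewer cells of a type and less RNA per cell cannot be told apart, and the part of these shifts in the proteasome results was not tested.

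The 19S cap held the most calls. Of its 17 subunits, 12 were higher in obese tumours and 0 were lower, with a median log2 change of 0.50. In 11 of them the obese and lean tumours did not overlap. Over all tested genes, 30.9% were higher, 28.4% lower and 57% without overlap. With upper quartile factors 6 cap subunits were higher and 1 lower, with a median of 0.29, against 24.3% and 34.6% of all tested genes. The 20S core had 6 of 16 tested subunits higher, near the share over all tested genes, and 1 lower, with a median of 0.21. With upper quartile factors these became 1 higher, 2 lower and −0.00. Whether cap and core differ from each other was not tested.

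Among the 11 non-ATPase subunits, 8 rose, against 30.9% of all tested genes, with a median log2 change of 0.50. Psmd8 had the largest change of all members with TMM scaling. With upper quartile factors Psmg4 (−1.40), Psmb10 (−1.30) and Psme1 (−1.19) lay further from 0 than Psmd8 (1.06). Psmd8 (ENSMUSG00000030591, chromosome 7, 29174188 to 29180701, minus strand) encodes a lid subunit. It stood at 542, 364, 399 and 341 CPM in obese replicates 1 to 4 and at 184, 156, 173 and 171 CPM in lean replicates 1 to 4. The lowest obese tumour thus lay well above the highest lean tumour, a 2.41-fold difference of means (log2 change 1.27 ± 0.16, edgeR adjusted p = 0.000736). Psmd1 (ENSMUSG00000026229, chromosome 1, 86064387 to 86139151, plus strand) encodes the large scaffold of the base. Its level was 421, 373, 362 and 402 CPM in obese and 213, 247, 196 and 175 CPM in lean tumours, with no overlap. The log2 change was 0.91 ± 0.13 (edgeR adjusted p = 0.00121). Psmd2, the other base scaffold which also binds ubiquitin, stood at 599, 498, 476 and 565 CPM in obese and 374, 389.8, 325 and 307 CPM in lean tumours. All 4 obese values lay above all 4 lean values (0.62 ± 0.13, edgeR adjusted p = 0.00527). Psmd2 shares at least 90% of a stretch of over 200 bases with 2 pseudogenes, both listed at 0 counts.

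Psmd11, a lid subunit, stood at 155, 111, 124 and 134 CPM in obese and 83.3, 69.9, 65.5 and 67.7 CPM in lean tumours. The groups did not overlap (0.87 ± 0.14, edgeR adjusted p = 0.00168), but with offsets for GC content and exon length the change was 0.41 and did not pass (adjusted p = 0.0667, edgeR). Psmd4, a ubiquitin receptor of the cap, rose without overlap from 175 to 272 CPM in lean tumours to 320.3 to 398 CPM in obese tumours (0.66 ± 0.15, edgeR adjusted p = 0.00775). Psmd7, a lid subunit, rose by 0.50 ± 0.12 (edgeR adjusted p = 0.00798), Psmd14, the enzyme that cuts the ubiquitin chain off, by 0.50 ± 0.14 (0.0167), and Psmd12, a lid subunit, by 0.46 ± 0.12 (0.0136). In these genes too the obese tumours lay above the lean ones. The calls of Psmd7, Psmd12 and Psmd14 ended with upper quartile factors (adjusted p 0.0646 to 0.117), and those of Psmd12 and Psmd14 also without lean replicate 3 or lean replicate 4 (0.0507 to 0.0536). The 3 subunits that did not pass were Psmd3 (0.21, edgeR adjusted p = 0.324), Psmd6 (0.07, 0.624) and Psmd13 (−0.32, 0.106). Psmd13, a lid subunit, was the one member of the cap with a negative change. It stood at 129.9, 102, 166 and 119 CPM in obese and 177, 158, 154 and 156 CPM in lean tumours, where obese replicate 3 alone reached the lean range. Without that tumour its log2 change was −0.45 and passed (edgeR adjusted p = 0.0144).

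The 6 ATPases form the ring that unfolds the substrate, and 4 of them rose, against 30.9% of all tested genes. Their median log2 change was 0.41. With upper quartile factors 1 rose, against 24.3% of all tested genes, and the median was 0.20. Psmc4 stood at 354, 235, 276 and 278 CPM in obese and 198, 163, 157 and 166 CPM in lean tumours. Every obese tumour was higher than every lean one (0.74 ± 0.15, edgeR adjusted p = 0.00458). Psmc6 stood at 249, 225, 277 and 274 CPM in obese and 182, 203, 166 and 151 CPM in lean tumours. It did not overlap either (0.54 ± 0.13, edgeR adjusted p = 0.00839), yet offsets for GC content and exon length left a change of 0.04 (adjusted p = 0.699, edgeR). Psmc5 stood at 343, 252, 310.0 and 329 CPM in obese and 252, 220.2, 212 and 214 CPM in lean tumours. Obese replicate 2 met lean replicate 1 there (0.46 ± 0.13, edgeR adjusted p = 0.0163), and the call ended without lean replicate 3 (0.0599) or lean replicate 4 (0.0559). Psmc1 stood at 237, 236, 233 and 303 CPM in obese and 195, 223, 186 and 179 CPM in lean tumours. Its groups were close to each other (0.37 ± 0.13, edgeR adjusted p = 0.0383), and its call held in 9 of 18 alternatives. It was lost without lean replicate 1, 3 or 4 or obese replicate 4 (0.0876 to 0.111). Psmc2 (0.17, edgeR adjusted p = 0.201) and Psmc3 (0.03, 0.817) did not pass.

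In the alpha ring, which gates entry to the core, 4 of 8 members rose and none fell, with a median log2 change of 0.33. With upper quartile factors 1 rose and the median was 0.13. Over all tested genes 30.9% were higher and 28.4% lower (24.3% and 34.6% with upper quartile factors). Psma3 stood at 78.1, 90.5, 103 and 111 CPM in obese and 49.5, 59.4, 57.7 and 53.5 CPM in lean tumours. The groups were well apart (0.80 ± 0.14, edgeR adjusted p = 0.00235). A processed pseudogene of Psma3 matches 100% over 665 bases and was listed at 0 counts, so how reads shared with it were counted makes the level of Psma3 uncertain. Psma6 stood at 344, 351, 442 and 434 CPM in obese and 279.7, 295, 253 and 232 CPM in lean tumours. It also showed no overlap (0.57 ± 0.14, edgeR adjusted p = 0.00887). Psma5 stood at 198, 126, 173 and 175 CPM in obese and 130.3, 92.0, 108 and 115 CPM in lean tumours. Obese replicate 2 fell just under lean replicate 1 (0.59 ± 0.17, edgeR adjusted p = 0.0177), and without lean replicate 3 the adjusted p was 0.0515. It too has pseudogenes, 97.5% and 98.6% identical over 734 and 952 bases and listed at 0 counts.

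Psma1 stood at 291, 218, 315 and 282 CPM in obese and 234, 202, 210.1 and 216 CPM in lean tumours. It barely passed (0.36 ± 0.13, edgeR adjusted p = 0.0456), and its call held in 6 of 18 alternatives. The call was lost on leaving out any single tumour other than obese replicate 2 (0.0597 to 0.106). Psma2 (0.12, edgeR adjusted p = 0.475), Psma4 (0.17, 0.310) and Psma7 (0.31, 0.139) did not pass. Psma8, the alpha subunit of the testis proteasome, lay at 0.206, 0.280, 0.387 and 0.384 CPM in obese and 0.196, 0.383, 0.195 and 0.497 CPM in lean tumours. That is 124 reads over all 8 libraries, 5 to 28 per library, with no difference detectable at this depth (−0.01 ± 0.44, edgeR adjusted p = 0.985).

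The beta ring, which holds the cutting sites, had few calls beside the 30.9% higher and 28.4% lower over all tested genes, with 2 of 8 tested members higher, 1 lower and a median log2 change of 0.06 (0 higher, 2 lower and −0.15 with upper quartile factors). Psmb7, which carries the trypsin-like site, stood at 386, 282, 338 and 330.2 CPM in obese and 252, 242, 222 and 214 CPM in lean tumours. It rose without overlap (0.52 ± 0.12, edgeR adjusted p = 0.00872). Its exons overlap those of Nek6 on the other strand over 11.8% of their length, and with GC content and exon length offsets the change was 0.19 (edgeR adjusted p = 0.183). Psmb1, a non-catalytic subunit, stood at 385, 319.6, 407 and 361 CPM in obese and 283, 256, 283 and 272 CPM in lean tumours. It rose without overlap as well (0.43 ± 0.11, edgeR adjusted p = 0.0116), but not with upper quartile factors (0.144). Psmb6, which carries the caspase-like site, went the other way. It stood at 249, 189.8, 276 and 225 CPM in obese and 371, 258, 306 and 342 CPM in lean tumours. The highest obese tumour lay above the lowest lean one (−0.44 ± 0.16, edgeR adjusted p = 0.0432), and the call held in 10 of 18 alternatives. It was lost without lean replicate 1, 3 or 4 or obese replicate 1, 2 or 4 (0.0711 to 0.113). Psmb5, which carries the chymotrypsin-like site, did not pass (−0.21, edgeR adjusted p = 0.337). With the GC content and exon length offsets none of these 3 standard cutting subunits passed, and differences between them were not tested. Psmb2 (0.24, edgeR adjusted p = 0.140), Psmb3 (0.09, 0.548) and Psmb4 (0.03, 0.905) did not pass either.

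Psmb10 (ENSMUSG00000031897, chromosome 8, 105935735 to 105938444, minus strand) is the immunosubunit that takes the place of Psmb7. It stood at 144, 57.3, 164 and 107 CPM in obese and 298, 100.004, 271 and 342 CPM in lean tumours. Lean replicate 2 lay within the obese range while the other lean tumours lay far above it. The log2 change was −1.10 ± 0.43 and missed the threshold (edgeR adjusted p = 0.0561), with −1.36 and 0.0121 without lean replicate 2, and over all alternatives the adjusted p ran from 0.000645 to 0.131. The ratio of Psmb10 to Psmb7 counts within a library does not depend on scaling. Its log2 was −1.42, −2.30, −1.05 and −1.62 in obese and 0.24, −1.27, 0.29 and 0.67 in lean tumours. Lean replicate 2 fell among the obese tumours and the other 3 lean tumours lay above all of them. The difference of means was −1.58 (exact permutation test, two-sided, p = 0.0571, where 70 assignments allow no p below 0.0286), and −2.0 without lean replicate 2. With GC content and exon length offsets it was −0.86.

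**Figure D3:**
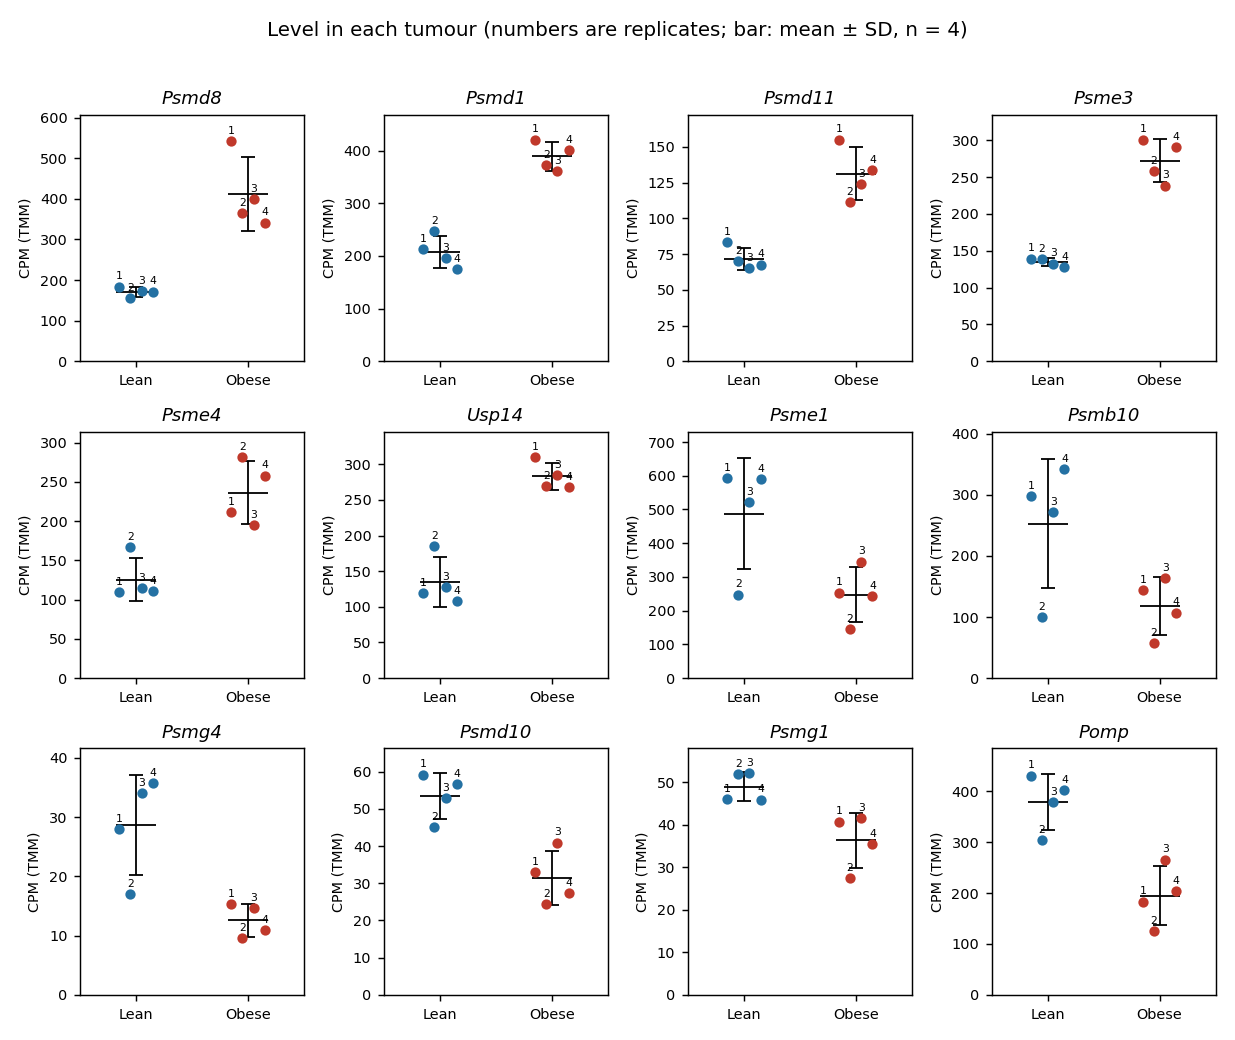
Level of 12 genes in each tumour, in CPM with TMM scaling (vertical axis from 0), lean in blue and obese in red. Numbers are replicates and bars are mean ± SD (n = 4). Psmd8, Psmd1, Psmd11, Psme3, Psme4 and Usp14 lie higher in every obese tumour, Psmg4, Psmd10, Psmg1 and Pomp lower in every one, and in Psme1 and Psmb10 lean replicate 2 sits at the level of the obese tumours.

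The activators split, with Psme3 and Psme4 higher, Psme1 lower and Psme2 not past the test. Psme3 (ENSMUSG00000078652, chromosome 11, 101316213 to 101323537, plus strand) encodes the nuclear activator PA28 gamma, which works without ubiquitin. It stood at 301, 259, 239 and 291 CPM in obese and 139, 139, 133 and 128 CPM in lean tumours. The groups were far apart and tight, a 2.02-fold difference (1.02 ± 0.11, edgeR adjusted p = 0.000373). Psme4 (ENSMUSG00000040850, chromosome 11, 30771726 to 30880361, plus strand) encodes the large single-chain activator PA200. It stood at 211, 282, 194 and 258 CPM in obese and 109, 166, 115 and 111 CPM in lean tumours. Lean replicate 2 was above the other lean tumours, still under all obese ones (0.92 ± 0.19, edgeR adjusted p = 0.00486).

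Psme1 (ENSMUSG00000022216, chromosome 14, 55578123 to 55581529, plus strand) encodes the alpha subunit of the interferon-induced activator. It stood at 254, 146, 345 and 242 CPM in obese and 593, 247, 522 and 589 CPM in lean tumours. As in Psmb10, lean replicate 2 lay among the obese tumours. The log2 change was −0.98 ± 0.34 (edgeR adjusted p = 0.0352), the call held in 11 of 18 alternatives and the highest adjusted p over them was 0.0780. The call was lost without lean replicate 1, 3 or 4 or obese replicate 1, 2 or 4 (0.0702 to 0.0780). GC content and exon length offsets ended it as well, with a change of −0.62 (edgeR adjusted p = 0.0754). Psme2 (ENSMUSG00000079197, chromosome 14, 55587441 to 55591113, minus strand) encodes its beta partner. It stood at 107, 71.1, 145 and 127 CPM in obese and 173, 103, 134 and 169 CPM in lean tumours, which overlap (−0.37 ± 0.25, edgeR adjusted p = 0.228). A copy, Psme2b on chromosome 11, is 99.4% identical over 794 bases and took 87565 counts against 48557 for Psme2, so the split of reads between them is uncertain. Summed, the pair changed by −0.31 (edgeR adjusted p = 0.335).

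Set against each other within a library, Psme1 to Psme3 had a log2 ratio of −0.25, −0.83, 0.53 and −0.26 in obese and 2.09, 0.84, 1.98 and 2.21 in lean tumours. All obese values lay below all lean ones, lean replicate 2 included. This pair was chosen after its values were seen and was not tested. Psmf1, the proteasome inhibitor PI31, stood at 79.4, 68.4, 67.8 and 69.7 CPM in obese and 54.2, 57.2, 60.6 and 62.6 CPM in lean tumours. The groups were close together without overlap (0.28 ± 0.10, edgeR adjusted p = 0.0439), and the call held in 4 of 18 alternatives. Leaving out any single tumour other than obese replicate 3 ended it (0.0521 to 0.141), as did upper quartile factors (0.572).

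**Figure D4:**
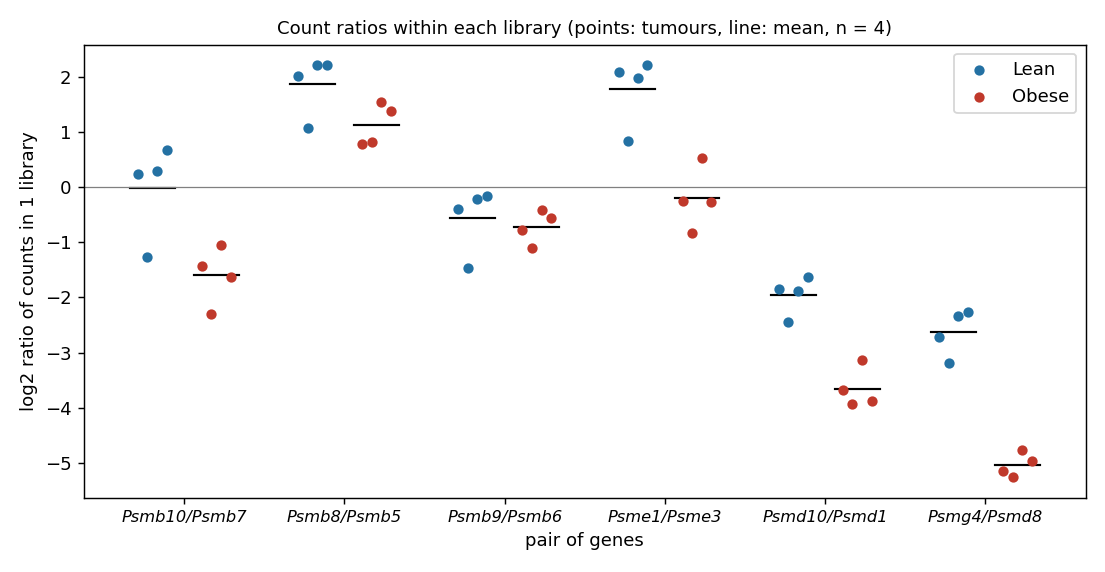
Log2 ratio of the counts of pairs of genes within each library (vertical axis), lean in blue and obese in red, with lines at the group means. The first pair was fixed for a test and the others were chosen after their values were seen. Obese and lean tumours do not overlap in Psme1/Psme3, Psmd10/Psmd1 and Psmg4/Psmd8.

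The assembly chaperones, which help build the particle and are not part of it when finished, gave no rise. Of 7 chaperones, 0 were higher and 3 (42.9%) lower in obese tumours, against 30.9% and 28.4% of all tested genes. Their median log2 change was −0.30, and 6 of 7 changes were negative. Upper quartile factors gave 6 lower (85.7%, median −0.51), against 34.6% of all tested genes. Scaling by library size alone also gave 6 lower (median −0.48), against 33.8% of all tested genes. Under GC content and exon length offsets 2 were lower (28.6%, median −0.26), no more than the 29% of all genes tested there. Psmg4 (ENSMUSG00000071451, chromosome 13, 34162964 to 34178173, plus strand) pairs with Psmg3 to assemble the alpha ring. It stood at 15.3, 9.53, 14.6 and 10.97 CPM in obese and 27.9, 17.0, 34.1 and 35.7 CPM in lean tumours. All obese tumours lay below all lean ones, a 2.28-fold lower mean (−1.19 ± 0.27, edgeR adjusted p = 0.00779). Psmg1, which pairs with Psmg2 in the same task, stood at 40.8, 27.6, 41.7 and 35.5 CPM in obese and 46.2, 51.9, 52.2 and 45.9 CPM in lean tumours. It fell without overlap (−0.43 ± 0.15, edgeR adjusted p = 0.0387), and the call held in 10 of 18 alternatives. It was lost without any single lean tumour, without obese replicate 2 or without obese replicate 4 (0.0663 to 0.109). GC content and exon length offsets also ended the Psmg1 call, with a change of −0.21 (edgeR adjusted p = 0.234).

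Psmg3 stood at 34.4, 28.6, 34.1 and 30.4 CPM in obese and 42.4, 29.2, 38.3 and 40.3 CPM in lean tumours. Psmg2 stood at 61.6, 41.7, 60.8 and 44.9 CPM in obese and 61.6, 68.6, 67.9 and 59.4 CPM in lean tumours. Neither passed, with −0.24 (edgeR adjusted p = 0.194) for Psmg3 and −0.30 (0.126) for Psmg2, though without lean replicate 2 Psmg3 did (−0.34, 0.0402). With upper quartile factors or library size only all 4 chaperones of the 20S core were lower.

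Psmd10 (ENSMUSG00000031429, chromosome X, 140948429 to 140956728, minus strand), the oncoprotein gankyrin, is a chaperone of the 19S base. It stood at 33.1, 24.3, 40.9 and 27.3 CPM in obese and 59.2, 45.2, 52.9 and 56.6 CPM in lean tumours. Obese tumours were lower without overlap, with a 1.70-fold lower mean (−0.77 ± 0.18, edgeR adjusted p = 0.00895). The other base chaperones did not pass, although Psmd9 did with upper quartile factors (adjusted p = 0.0339, edgeR) and library size only (0.0354). Psmd9 stood at 61.7, 45.1, 52.2 and 41.1 CPM in obese and 68.2, 49.1, 64.3 and 65.6 CPM in lean tumours (−0.30 ± 0.17, edgeR adjusted p = 0.142). Psmd5 stood at 126, 114, 128 and 107 CPM in obese and 121, 97.7, 109.7 and 112 CPM in lean tumours (0.11 ± 0.11, edgeR adjusted p = 0.425). Within a library, Psmd10 to Psmd1 had a log2 ratio of −3.67, −3.94, −3.14 and −3.88 in obese and −1.84, −2.45, −1.89 and −1.62 in lean tumours. A base chaperone and a base subunit thus lay further apart in every obese tumour than in any lean one, in a pair chosen after its values were seen and not tested.

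**Figure D5:**
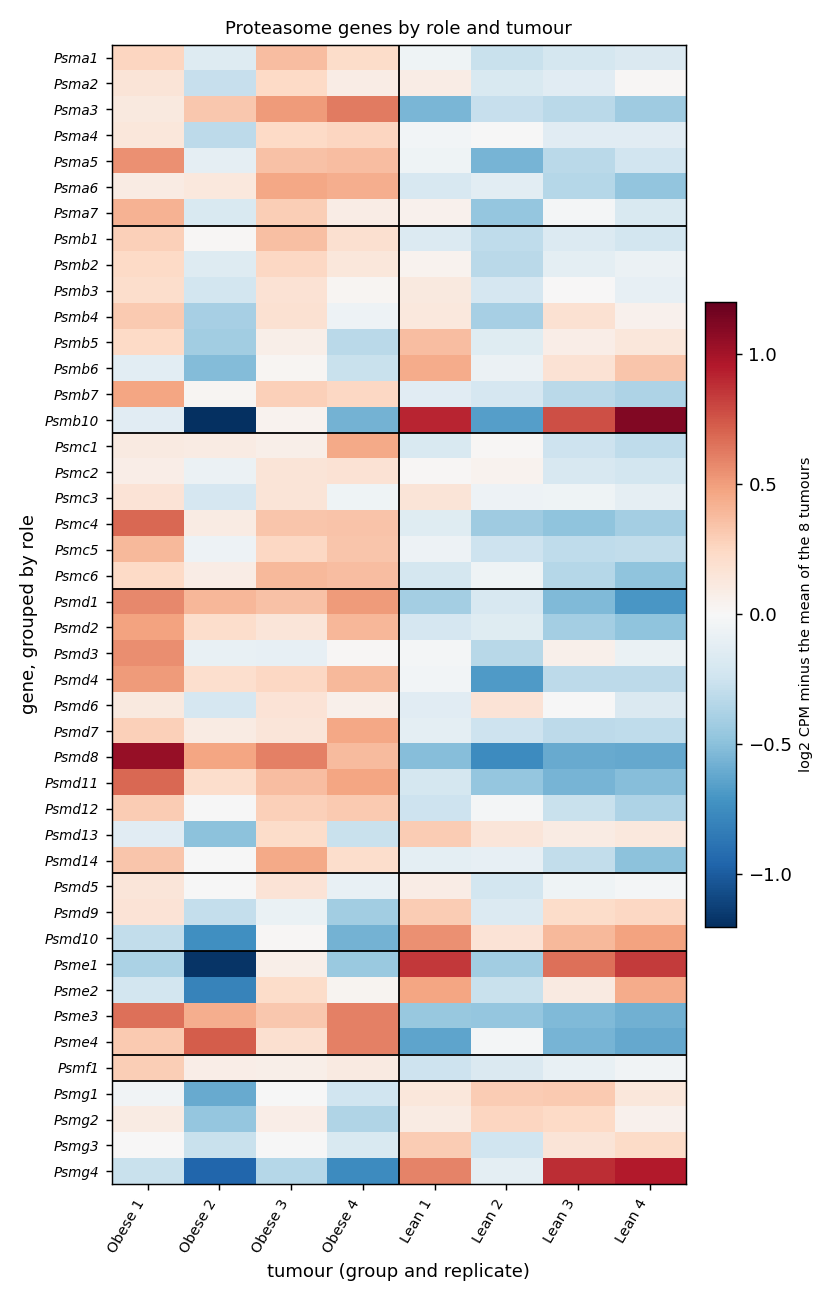
Log2 CPM of 44 proteasome genes minus the mean of the 8 tumours (colour), with tumours in columns, obese left of the line, and genes in rows by role. Psma8 and Psmb11 are left out for low counts. The 19S block is mostly red on the obese side, Psmb10, Psme1, Psmg4 and Psmd10 are mostly blue there, while lean replicate 2 departs from the other lean tumours in Psmb10 and Psme1.

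Levels of different subunits can be compared only per length of transcript. Over the 31 standard subunits of core and cap, CPM per kb of merged exons had a median of 73.1 in lean and 97.7 in obese tumours. In lean tumours it ran from 11.2 ± 1.26 for Psmd11 to 215 ± 22.7 for Psma6 (SD, n = 4), a 19.1-fold range between genes whose proteins sit in the same particle. The length chosen matters, since with the principal transcript the lean median was 125 and the lowest was Psma3 at 19.3 and the highest Psmb6 at 400.02 CPM per kb. Psma3, which has the identical pseudogene described above, was among the lowest 2 in both.

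Of 19 listed genes that work with the proteasome but carry other symbols, 18 were in the table and all 18 were tested, with 5 higher, 3 lower and a median log2 change of 0.16. Calls were no more frequent in either direction than the 30.9% higher and 28.4% lower over all tested genes. Usp14, a deubiquitinase bound to the cap, stood at 309.8, 269, 285 and 268 CPM in obese and 119, 186, 128 and 108 CPM in lean tumours. All obese tumours lay above all lean ones (1.07 ± 0.18, edgeR adjusted p = 0.00218). Uchl5, the other deubiquitinase bound to the cap, rose by 0.92 ± 0.16 (edgeR adjusted p = 0.00267), and Zfand2a, which binds the cap under arsenite stress, was 2.17-fold higher (0.00116). Pomp, the chaperone that closes the 20S core, is given here because it belongs with the Psmg genes, and was chosen after its values were seen. It stood at 183, 125, 266 and 205 CPM in obese and 431, 304, 378 and 402 CPM in lean tumours. Like Psmg4 and Psmd10 it was lower in every obese tumour (−0.96 ± 0.23, edgeR adjusted p = 0.00882).

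The immunosubunits outside the member rule were, like Psmb10 and Psme1, lower on average in obese tumours, with lean replicate 2 below the other lean tumours. Psmb8 stood at 292, 189, 442 and 301 CPM in obese and 756, 273, 708 and 731 CPM in lean tumours (−1.01 ± 0.36, edgeR adjusted p = 0.0416), and Psmb9, named as the remaining immunosubunit, had a change of −0.67 ± 0.39 and did not pass (0.160), though it did without lean replicate 2 (−0.94, 0.0192). The Psmb8 call held in 10 of 18 alternatives, and was lost with GC content and exon length offsets (0.0521) and without lean replicate 1, 3 or 4 or obese replicate 1, 2 or 4 (0.0851 to 0.0962). In the list of 12 genes of class I presentation and its interferon regulators, 1 was higher, 2 lower and the median was −0.31. Both counts lay below the 30.9% higher and 28.4% lower over all tested genes. H2-K1, a class I heavy chain, fell by 1.97 (SE 0.44, edgeR adjusted p = 0.00663), while Erap1, which trims peptides, rose by 0.47 ± 0.15 (0.0263). The Erap1 call held in 10 of 18 alternatives and was lost with upper quartile factors (0.166), with GC content and exon length offsets (a change of 0.08, 0.646) and without lean replicate 1, 3 or 4 or obese replicate 4 (0.0585 to 0.0740). The list summed to 6118 CPM in lean replicate 2, below the 6333 to 9928 CPM of the obese tumours, and to 14863 to 16578 CPM in the other lean tumours.

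Markers of lymphocytes were mostly lower in obese tumours and markers of macrophages mostly higher. Over all tested genes 28.4% were lower and 30.9% higher. T and NK cell markers summed to 17.6 to 56.6 CPM in obese and 68.7 to 175 CPM in lean tumours, lowest among lean in replicate 2, and 5 of 6 were lower in obese. B and plasma cell markers summed to 3.18 to 20.5 and 130 to 229 CPM, with 6 of 6 lower. Macrophage markers summed to 582 to 802 against 252 to 417 CPM, with 4 of 5 higher and 1, Csf1r, lower, while Ptprc, found on all leukocytes, did not pass (0.45). The part of any of these cell types in the values of Psmb10, Psme1 and Psmb8 was not tested.

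Of 11 genes of the NRF1 route to proteasome transcription, all tested, 3 were higher and 3 lower in obese tumours, with a median log2 change of 0.25. These shares are near those over all tested genes (30.9% higher, 28.4% lower). Nfe2l1 itself, the transcription factor NRF1 and named for that role whatever its value, did not pass (0.29, edgeR adjusted p = 0.127). Ddi2, the protease that frees NRF1, rose by 1.07 ± 0.20 (edgeR adjusted p = 0.00306), while Vcp, the ATPase that pulls NRF1 out of the membrane, fell by 0.61 (SE 0.11, 0.00276). Of the small Maf proteins, the DNA-binding partners of NRF1, Mafg fell by 0.82 (SE 0.17, edgeR adjusted p = 0.00461), while Mafk rose by 0.86 ± 0.21 (0.00906) and Maff by 1.40 ± 0.30 (0.00622). Ngly1, the remaining call of this list, had a change of −0.61 (SE 0.18, edgeR adjusted p = 0.0196). Of 6 genes of ubiquitin and its activation, 2 were higher and 2 lower, again near the shares over all tested genes, with a median of −0.06. Uba6, the second ubiquitin-activating enzyme, rose by 1.72 ± 0.21 (edgeR adjusted p = 0.000578) and Uba1, the main one, fell by 0.37 (SE 0.11, 0.0228). Rps27a, second by p in this list, rose by 0.96 ± 0.13 (edgeR adjusted p = 0.00103). The Uba1 call was lost without lean replicate 1 or 3 or obese replicate 2 or 4 (0.0519 to 0.0753).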

How the data were processed

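Per the labels, the 8 tumours were snap-frozen and stranded TruSeq libraries were sequenced. The deposited values are raw read counts per Ensembl gene, 1 column per tumour, made by the authors with CASAVA 1.8, bcl2fastq 2.18.0.12, cutadapt 1.12, STAR 2.5.2b and HTSeq on mm10, per the submitters' processing notes. The annotation, strand setting and read filters are not given in the sources used here, so reads from overlapping genes on opposite strands may not have been told apart. GENCODE M21 (GRCm38, positions counted from 1) gave coordinates and names, and 49412 genes had a symbol.

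Groups came from the labels, and replicate numbers only name tumours. Genes were kept by filterByExpr (minimum count 10, minimum total 15), scaled by TMM and compared with the robust, two-sided quasi-likelihood test of edgeR, with Benjamini-Hochberg adjustment over 14887 genes and a threshold of 0.05. The SE is the log2 change over the square root of F. The Psmb10 to Psmb7 ratio used counts plus 0.5 and an exact permutation test. The 18 alternatives were other scaling factors (DESeq2, upper quartile, library size only), filters (none, 1 CPM in 4 tumours) and tests (limma-voom without and with quality weights, DESeq2 Wald), 1 surrogate variable, GC content and exon length offsets, and each tumour left out in turn. The principal transcript length and the sum of Psme2 and Psme2b, and the alternatives for list genes, were chosen after the data were seen. Near copies were transcripts at least 90% identical over at least 200 bases, and 15 members had one (Psma2, Psma3, Psma4, Psma5, Psmb1, Psmb3, Psmb5, Psmb6, Psmb7, Psmc1, Psmc2, Psmd2, Psmd11, Psmd14, Psme2), whose levels are uncertain to that degree. The edgeR, limma-voom and DESeq2 tests were run on simulated counts in which few genes changed. That setting cannot show how the scaling behaves in these data, where 59.2% of tested genes passed. The members, lists, markers and naming rule were chosen with earlier results of these data known. The rule gave tumour values for up to 4 members with the smallest p in each role, every fall, and the interferon-induced and tissue-restricted members, and up to 3 genes by p from each list. In the NRF1 list, Mafk, Maff and Ngly1 were named beyond that rule. Software was sva 3.50.0, DESeq2 1.42.0, edgeR 4.0.16 and limma 3.58.1 under R 4.3.3.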

Additional observations from a re-analysis of the deposited data

Results flagged for a closer look

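Each tested member was examined for a tumour that stands apart from the other 3 of its group, with Dixon's test at its 95% critical value. Of 90 groups of 4, 5 had such a tumour, and chance alone flags about 1 in 20 groups. Psmc1 stood at 302.5 CPM in obese replicate 4, against 232.6 to 237.5 CPM in the other obese tumours. Psmd3 stood at 352.5 CPM in obese replicate 1, against 223.8 to 241.9 CPM. Psmf1 stood at 79.4 CPM in obese replicate 1, against 67.8 to 69.7 CPM. Psmd12 was low in obese replicate 2, at 191.5 CPM against 234.6 to 239.2 CPM. Psme4 was high in lean replicate 2, at 166.5 CPM against 109.2 to 115.0 CPM. Lean replicate 2 was not marked for Psmb10 or Psme1, although it lay apart from the other lean tumours there.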

How the results depend on the processing

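No paired analysis was possible because the labels give no replicate numbers shared between obese and lean tumours. Among 810 pairs of a member and a setting, 694 kept their side of the threshold (42 of them changed sign with no call on either side), 84 lost a call, 32 gained one and 0 reversed a call. Members higher in obese tumours numbered 21, and 11 with library size only (24.8% of all genes there) and 9 with upper quartile factors (24.3%). With single tumours left out 14 to 21 were higher, where 25.4 to 31.7% of all genes were. Members lower numbered 5, and 10 with library size only (33.8% of all genes) and 10 with upper quartile factors (34.6%). They numbered 2 with GC content and exon length offsets (29%), 3 without a filter on low counts (21.5%) and 11 with limma-voom and quality weights (39%). With single tumours left out 2 to 7 were lower, where 20.6 to 33.6% of all genes were. The median log2 change of the members was 0.24, and 0.0596 with library size only, 0.0305 with upper quartile factors and 0.21 to 0.31 with single tumours left out. The difference in the log2 ratio of Psmb10 to Psmb7 ran from −2.0 to −1.35 with single tumours left out, and the former, without lean replicate 2, was the one that reached the smallest p its design allows. The median level of the standard subunits in lean tumours was 73.1 CPM per kb of merged exons, 109 with the longest transcript and 125 with the principal one, since shorter lengths give higher levels by construction. Calls over all genes numbered 8819, and 7143 to 9833 with single tumours left out. For the counts, the median and the ratio the cause was not tested. Of the 26 calls, 14 were kept with upper quartile factors, 16 when scaling by library size only or without lean replicate 3, and 18 with GC content and exon length offsets. The shares of calls kept over all genes are not given here. Depth limits only Psma8 and Psmb11.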
